A study of Homo sapiens with 6 samples.

Results

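The epidermal growth factor receptor (EGFR) family was followed through 10 genes, chosen by their symbols among the 25349 genes of the count table: the receptors EGFR, ERBB2 and ERBB3, the ligands AREG, EREG, HBEGF, TGFA, BTC and EPGN, and the receptor inhibitor ERRFI1. EGFR and its relatives are receptor tyrosine kinases of the cell surface. The ligands are made as membrane-anchored precursors, are released by proteases of the ADAM family and drive the receptors into pairs that signal through RAS, ERK and PI3K, and ERRFI1 (also called MIG6) binds the kinase domain of the activated receptor and shuts it off. In squamous epithelium the pathway is known for keeping basal cells growing and moving, and EGFR is often overexpressed in squamous carcinoma.

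SCC-9 is an established human cell line that came from a squamous carcinoma of the tongue. All cells were transfected with siRNA at 10 nM by lipofection on day 0 and, after passage, on day 2, and were grown in a medium with hydrocortisone, and RNA was taken after the second transfection. The siKi libraries (siRNA to MKI67 exon 7, in the gene of the proliferation marker Ki67) and the NS libraries (nonspecific siRNA) numbered 3 each. The methods list several siRNAs against exon 7 and do not name the one used here. Whether the libraries came from separate cultures is not stated, so that p-values measure the spread between these libraries, which may be technical.

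The libraries held 25608192 to 29550264 counts on genes. MKI67, the targeted gene, had 26473, 25695 and 28445 counts with NS and 3313, 3436 and 3297 with siKi, a log2 fold change of -3.21 ± 0.114 (SE, adjusted p = 6.7e-08 by edgeR's quasi-likelihood test, adjusted after Benjamini and Hochberg). All 11 squamous epithelial markers exceeded a mean of 1 CPM (the usual scaling of counts to library size, with TMM factors). The summed marker level was 26400 to 27700 CPM with NS and 22800 to 29800 CPM with siKi. Of these 11 markers, 1 was called higher (adjusted p under 0.05 by edgeR), where 18.0% of all tested genes were. Another 6 were called lower, where 16.0% of all tested genes were. Summed over each list, fibroblast markers reached at most 24.2 CPM, immune markers 3.6 CPM, endothelial markers 0.568 CPM, and melanocyte and nerve markers 2.07 CPM. No reads were listed for PTPRC, CD3E, LYZ and TYROBP. The library siKi 1 stood apart from siKi 2 and siKi 3, with a chi-square of 61.1 and 72.7 per degree of freedom over the tested genes, where the other pairs of libraries within a group gave 5.54 to 6.22. Each member is therefore given with and without it.

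Of the 10 members, 9 passed the filter on low counts and were tested among 14661 genes. With siKi, EGFR itself and the ligands HBEGF and TGFA fell, AREG and the inhibitor ERRFI1 rose, and no change was called for ERBB2, ERBB3, EREG and EPGN. A gene was called at an adjusted p under 0.05. By this rule 2 of the 9 members were higher (22.2%), beside 18.0% of all tested genes, and 3 were lower (33.3%), beside 16.0% of all tested genes. A call with a log2 fold change above 1 or below -1 is named a DEG (differentially expressed gene), by the study's thresholds but with edgeR. This was reached by ERRFI1 upward, where 7.38% of all genes were DEGs, and by EGFR downward, where 4.84% were. The study used DESeq2, by which 909 genes were DEGs upward and 798 downward here. For 5 members the siKi and NS libraries did not overlap in CPM, which held for 47.6% of the tested genes. The median log2 fold change of the members was -0.04, and that of all tested genes 0.08, so that the members did not move one way as a group.

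**Figure D1:**
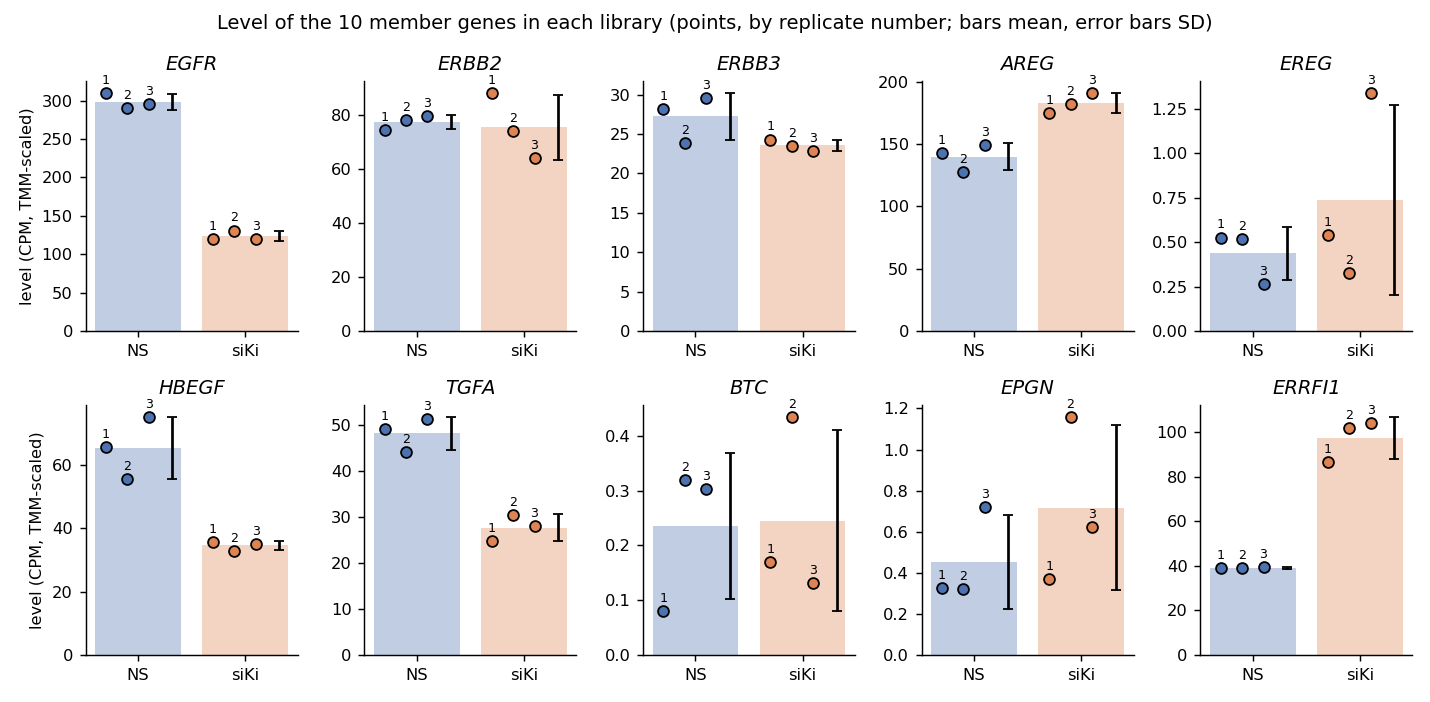
Levels of the 10 members in CPM (y axes, each from 0), with 1 point per library labelled by its replicate number, bars for the group mean and error bars for the SD of 3 libraries. All siKi points of EGFR, HBEGF and TGFA lie below, and all siKi points of AREG and ERRFI1 above, the NS points, while the points of the other members overlap.

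The members lay on 7 chromosomes, and 4 of the 6 ligands, EPGN, EREG, AREG and BTC, lay in this order on chromosome 4 of GRCh38 within 486 kb (74308470 to 74794523). The promoters of members that rose or fell, and of EREG and EPGN from the cluster of AREG, are shown to set the genes beside each other. Each line gives the 150 bases before the transcription start from the RefSeq tables (GRCh38.p14), read 5′ to 3′ in the direction of the gene, with capitals for matches to any of 5 motifs on either strand. The TATA box, which places the polymerase at the start, was searched as TATAAA. The site of the AP-1 factors, the FOS and JUN proteins at the end of the ERK pathway, was searched as TGANTCA. The cAMP response element (CRE) was searched as TGACGTCA. The GC box, a site of the SP factors, was searched as GGGCGG. The site of the TEAD factors, partners of YAP, was searched as CATTCC. The positions are chr7:55018867-55019016 (plus strand) for EGFR, chr5:140346604-140346753 (minus strand) for HBEGF, chr2:70553827-70553976 (minus strand) for TGFA, chr1:8026310-8026459 (minus strand) for ERRFI1, chr4:74444986-74445135 (plus strand) for AREG, chr4:74364995-74365144 (plus strand) for EREG and chr4:74308320-74308469 (plus strand) for EPGN. For EGFR and TGFA, which have 2 listed starts each, the first is shown.
EGFR: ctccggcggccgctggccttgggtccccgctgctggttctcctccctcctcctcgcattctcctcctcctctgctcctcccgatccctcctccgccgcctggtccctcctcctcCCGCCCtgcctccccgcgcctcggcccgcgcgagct
HBEGF: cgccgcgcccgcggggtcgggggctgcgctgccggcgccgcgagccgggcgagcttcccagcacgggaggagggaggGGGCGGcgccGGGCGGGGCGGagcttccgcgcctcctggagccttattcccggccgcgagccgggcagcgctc
TGFA: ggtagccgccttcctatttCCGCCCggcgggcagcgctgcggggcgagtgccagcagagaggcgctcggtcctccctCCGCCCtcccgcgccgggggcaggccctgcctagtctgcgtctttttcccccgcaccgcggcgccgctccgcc
ERRFI1: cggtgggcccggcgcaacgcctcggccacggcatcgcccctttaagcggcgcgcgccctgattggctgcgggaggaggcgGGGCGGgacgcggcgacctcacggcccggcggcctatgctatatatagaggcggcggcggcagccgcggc
AREG: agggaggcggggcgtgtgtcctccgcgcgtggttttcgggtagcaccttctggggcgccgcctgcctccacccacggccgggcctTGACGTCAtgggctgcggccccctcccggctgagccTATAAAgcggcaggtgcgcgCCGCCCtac
EREG: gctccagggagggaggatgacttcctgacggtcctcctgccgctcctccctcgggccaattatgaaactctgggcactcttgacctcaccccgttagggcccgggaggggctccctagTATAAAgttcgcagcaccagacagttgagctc
EPGN: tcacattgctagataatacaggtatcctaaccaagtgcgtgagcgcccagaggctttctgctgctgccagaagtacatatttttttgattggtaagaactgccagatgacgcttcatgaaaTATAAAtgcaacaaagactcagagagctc

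The letters TATAAA lay at -29 in EPGN, -32 in EREG and -29 in AREG, counted to their first base from the start site. BTC, the remaining gene of the cluster, whose promoter is not shown, held no TATAAA. GC boxes lay in the shown promoters of EGFR, HBEGF, TGFA, ERRFI1 and AREG. The search took these exact letters alone, and variants of the TATA box, such as the run of alternating t and a close to the start of ERRFI1, were not counted. In the whole window of 250 bases before to 50 after the start, HBEGF had 5 GC boxes, a pair of which overlapped by their end bases, TGFA had 4, EGFR 3 and ERRFI1 1. The GC content of the window was 75.3% for EGFR, 75.0% for HBEGF, 75.3% for TGFA and 74.7% for ERRFI1. It was 66.3% for AREG, 57.7% for EREG and 37.7% for EPGN, and the median over all 35116 promoters was 58.7%. The window of BTC had 63.0% GC and 1 GC box. The GC boxes and GC content given for EGFR and TGFA are those of the first start. The window of the second start had 42.0% GC in EGFR and 63.0% in TGFA, and no GC box in either. AREG alone among the members had a CRE, at -65, together with a GC box at -9. AP-1 matches were found only at the second start of EGFR, which also held TATA boxes at -146 and -36 and a TEAD match, and in ERBB2 at -222. Of all promoters, 11.5% held a TATA box, 7.71% an AP-1 match, 1.85% a CRE, 45.0% a GC box and 14.0% a TEAD match. The windows matched 9 members, with 11 starts, and ERBB3 was not among them. These are matches of letters, and no binding was measured.

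**Figure D2:**
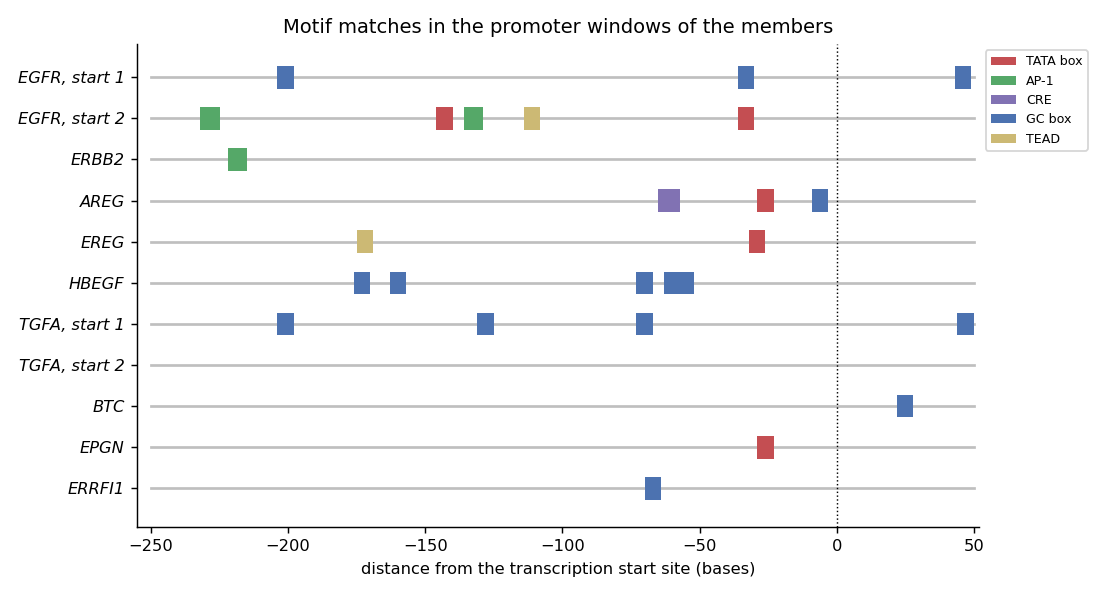
Motif matches (coloured blocks) along the promoter windows of 9 members, from 250 bases before to 50 after the start site (x axis, in bases; dotted line, start). AREG, EREG, EPGN and the second start of EGFR each have a TATA box at -36 to -29, and GC boxes are most frequent in HBEGF (5) and at the first start of TGFA (4).

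To rank the members, CPM were divided by the length of the gene's merged exons, which gives CPM per kb. In the NS libraries AREG was the most abundant member, at 85.2 ± 6.4 CPM per kb (SD, n = 3), position 559 from the top among 14645 tested genes with a length. HBEGF followed at 21.9 ± 3.27 and EGFR at 18.7 ± 0.652 CPM per kb, and these did not differ beyond their spread. TGFA, at 9.8 ± 0.734, and ERRFI1, at 9.38 ± 0.0938 CPM per kb, could not be ranked against each other either. ERBB2 came next at 7.49 ± 0.253 and ERBB3 at 2.33 ± 0.255 CPM per kb. EPGN, BTC and EREG lay at 0.138 ± 0.0695, 0.0885 ± 0.0503 and 0.0766 ± 0.0261 CPM per kb, with overlapping libraries. With siKi the order of levels was AREG (111 ± 4.85), ERRFI1 (23.3 ± 2.27), HBEGF (11.6 ± 0.483), EGFR (7.75 ± 0.382), ERBB2 (7.29 ± 1.16), TGFA (5.63 ± 0.575) and ERBB3 (2.01 ± 0.057 CPM per kb), in which EGFR and ERBB2 overlapped. ERRFI1 thus moved from below EGFR to above it. With the longest coding transcript as length, EGFR (30.1 CPM per kb) stood above HBEGF (27.8), and ERBB2 (16.1) above ERRFI1 (12.7) and TGFA (11.7), in the NS libraries. With siKi the transcript length put ERBB2 (15.7 ± 2.51 CPM per kb) and HBEGF (14.7 ± 0.613) above EGFR (12.5 ± 0.614), so that the order of HBEGF, EGFR and ERBB2 is not settled, while AREG and ERRFI1 led by either length.

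EGFR (ENSG00000146648.20, chromosome 7, 55019017 to 55211628, plus strand), the receptor of all 6 ligands above, was lower in each siKi library than in any NS library. It stood at 310, 290 and 295 CPM in NS 1, 2 and 3 and at 120, 131 and 120 CPM in siKi 1, 2 and 3. The groups were far apart and the libraries of each lay close together, siKi 1 included. The level of siKi was 0.415 times that of NS, a log2 fold change of -1.27 ± 0.105 (SE, adjusted p = 9.1e-06 by edgeR's quasi-likelihood test). Over 14 alternative settings the log2 fold change lay between -1.33 and -1.1, with an adjusted p of at most 0.00024. Without siKi 1 it was -1.31. An exact permutation test, two-sided, gave p = 0.10 for EGFR and for each of the 4 other members without overlap, the smallest p that 3 libraries against 3 allow. In bulk RNA, fewer cells with EGFR and less EGFR RNA per cell cannot be told apart. EGFR shares its locus with EGFR-AS1 on the other strand, and whether the counting used the strand is not stated.

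ERBB2 (ENSG00000141736.14, chromosome 17, 39687914 to 39730426, plus strand), the family member that has no ligand of its own and pairs with the others, had 74.4, 78.1 and 79.4 CPM in the NS libraries and 88.0, 73.8 and 64.1 CPM in siKi 1, 2 and 3. The siKi libraries lay on both sides of the NS libraries, with siKi 1 the highest of all 6. Its log2 fold change was -0.04 ± 0.13 (SE, adjusted p = 0.84 by edgeR's quasi-likelihood test), it turned to 0.12 without scaling for library composition and to 0.07 without siKi 3, and it was called lower, at -0.23 (adjusted p = 0.0037), without siKi 1. Over all alternatives the adjusted p ranged from 0.0037 to 0.95. ERBB2 overlaps MIEN1 and PGAP3 on the other strand and MIR4728 on its own. ERBB3 (ENSG00000065361.17, chromosome 12, 56076799 to 56103505, plus strand), whose kinase is nearly inactive and which relies on its partner, gave 28.2, 23.9 and 29.6 CPM with NS and 24.3, 23.5 and 22.9 CPM with siKi. The library siKi 1 lay just above the lowest NS library and the other siKi libraries below it, so that the groups overlapped. The log2 fold change was -0.21 ± 0.132 (SE, adjusted p = 0.24 by edgeR's quasi-likelihood test), and without siKi 1 it was -0.29 and was called (adjusted p = 0.0075, against 0.0075 to 0.8 over all alternatives). ERBB3 overlaps ENSG00000257411 on its own strand. Without scaling for composition the median log2 fold change of all tested genes was higher by 0.169, and the values of ERBB2 and ERBB3 moved up with it.

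The make-up of the receptor transcripts therefore shifted. Of the summed CPM per kb of the 3 receptors, EGFR took 66.9%, 65.4% and 64.4% in the NS libraries and 41.5%, 47.2% and 48.0% in the siKi libraries. ERBB2 took 26.3 ± 1.29% with NS and 42.6 ± 3.96% with siKi, and ERBB3 8.15 ± 0.743% and 11.8 ± 0.558% (SD, n = 3). For each of the receptors the groups did not overlap. With the longest coding transcript as length, EGFR had 58.9% and 38.7%. The sum of the receptors was 28.5 ± 0.654 CPM per kb with NS and 17.1 ± 1.22 with siKi. Within each library, the ratio of ERBB2 to EGFR was 0.371, 0.416 and 0.417 with NS and 1.13, 0.873 and 0.822 with siKi. With the longest coding transcript as length the same ratio was 0.497, 0.557 and 0.557 with NS and 1.52, 1.17 and 1.1 with siKi, so that which of these receptors was more abundant in siKi 2 and siKi 3 depended on the length used. In both measures the ratio was higher in every siKi library than in any NS library, and it does not depend on the scaling of the libraries.

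AREG (ENSG00000109321.11, chromosome 4, 74445136 to 74455005, plus strand) encodes amphiregulin, a ligand of EGFR and a main autocrine growth factor of keratinocytes. Its level was 143, 128 and 149 CPM with NS and 175, 182 and 191 CPM with siKi. Every siKi library lay above every NS library, the gap from NS 3 to siKi 1 being the smallest. The log2 fold change was 0.39 ± 0.109 (SE, adjusted p = 0.017 by edgeR's quasi-likelihood test), or 1.31 times the NS level. The call was lost when any of the NS libraries or siKi 3 was left out, with adjusted p-values of 0.073 without NS 1, 0.12 without NS 2, 0.057 without NS 3 and 0.055 without siKi 3. Without siKi 1 the log2 fold change was 0.36 and the adjusted p 2.3e-06. The direction was the same under all 14 alternatives, with log2 fold changes from 0.32 to 0.56.

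HBEGF (ENSG00000113070.8, chromosome 5, 140332843 to 140346603, minus strand), the heparin-binding ligand that also serves as the receptor of diphtheria toxin, had 65.8, 55.6 and 75.2 CPM with NS and 35.7, 33.0 and 35.2 CPM with siKi. The NS libraries were spread more widely than the siKi libraries, and the lowest of them was still well above the highest siKi library. The log2 fold change was -0.92 ± 0.132 (SE, adjusted p = 0.00039 by edgeR's quasi-likelihood test), between -1.03 and -0.75 over the alternatives, with an adjusted p of at most 0.0047. It passed the study's DEG threshold when siKi 1 was left out, at -1.003, and when NS 2 was, at -1.03. TGFA (ENSG00000163235.16, chromosome 2, 70447284 to 70554193, minus strand), transforming growth factor alpha, went from 49.2, 44.2 and 51.2 CPM to 24.7, 30.4 and 28.0 CPM. The groups were apart, and siKi 1 was the lowest library, without which the log2 fold change was -0.78. TGFA had a log2 fold change of -0.80 ± 0.128 (SE, adjusted p = 0.00079 by edgeR's quasi-likelihood test), and over the alternatives the log2 fold change was -0.87 to -0.63 with an adjusted p of at most 0.0091. TGFA overlaps TGFA-IT1 on its own strand.

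EREG, EPGN and BTC, which encode epiregulin, epigen and betacellulin, were barely counted, although they lie in the same cluster as AREG. EREG (ENSG00000124882.4, 74365145 to 74388749, plus strand) had 13, 13 and 7 counts with NS and 16, 9 and 41 with siKi, and 1 library, siKi 3, set its mean apart. Its log2 fold change was 0.76 ± 0.554 (SE, adjusted p = 0.31 by edgeR's quasi-likelihood test) and was -0.0024 without siKi 3 and 0.89 without siKi 1. EPGN (ENSG00000182585.10, 74308470 to 74316789, plus strand) had 8, 8 and 19 counts with NS and 11, 32 and 19 with siKi, a log2 fold change of 0.64 ± 0.523 (SE, adjusted p = 0.37 by edgeR), and 0.89 without siKi 1. BTC (ENSG00000174808.12, 74744759 to 74794523, minus strand), with 2, 8 and 8 counts with NS and 5, 12 and 4 with siKi, did not pass the filter. The NS and siKi libraries overlapped for all of them, and none showed a difference beyond the spread between libraries.

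Among the ligand transcripts, the share of AREG was higher with siKi and the shares of HBEGF and TGFA were lower. AREG took 73.0%, 73.7% and 71.6% of the summed CPM per kb of the 6 ligands in the NS libraries and 86.1%, 86.2% and 86.7% in the siKi libraries. HBEGF took 18.6 ± 1.17% with NS and 8.98 ± 0.558% with siKi, and TGFA 8.36 ± 0.123% and 4.36 ± 0.386% (SD, n = 3). The rest, EPGN, EREG and BTC, stayed under 1% in sum in every library. The groups did not overlap for AREG, HBEGF and TGFA. The sum itself was 117 ± 10.4 CPM per kb with NS and 129 ± 5.2 with siKi, and these overlapped. The ratio of AREG to HBEGF per kb was 3.95, 4.19 and 3.6 with NS and 8.96, 10.1 and 9.89 with siKi. The ratio of AREG to TGFA was 8.7, 8.69 and 8.7 with NS and 21.2, 18.0 and 20.5 with siKi, so that each of the other abundant ligands lost ground to AREG in every siKi library. HBEGF and TGFA had a ratio that overlapped between the groups, at 2.2, 2.07 and 2.42 with NS and 2.37, 1.79 and 2.07 with siKi.

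ERRFI1 (ENSG00000116285.13, chromosome 1, 8004404 to 8026309, minus strand) had the largest rise among the called members. Its level was 39.0, 38.9 and 39.6 CPM in the NS libraries and 86.7, 102 and 104 CPM in the siKi libraries. The NS libraries were nearly equal, and siKi 1, the lowest of the siKi libraries, was still far above them. The mean with siKi was 2.49 times that with NS, a log2 fold change of 1.32 ± 0.116 (SE, adjusted p = 1.4e-05 by edgeR's quasi-likelihood test). It was 1.33 without siKi 1 and 1.26 to 1.49 over the alternatives, with an adjusted p of at most 0.00047. Per kb, ERRFI1 transcripts numbered 0.481, 0.512 and 0.513 for each EGFR transcript in the NS libraries and 2.76, 2.97 and 3.31 in the siKi libraries, a ratio 5.99 times higher. By this measure the RNA of the inhibitor was thus below that of its target in all NS libraries and above it in all siKi libraries. The proteins were not measured in these libraries. ERRFI1 overlaps ENSG00000284747 on the other strand.

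**Figure D3:**
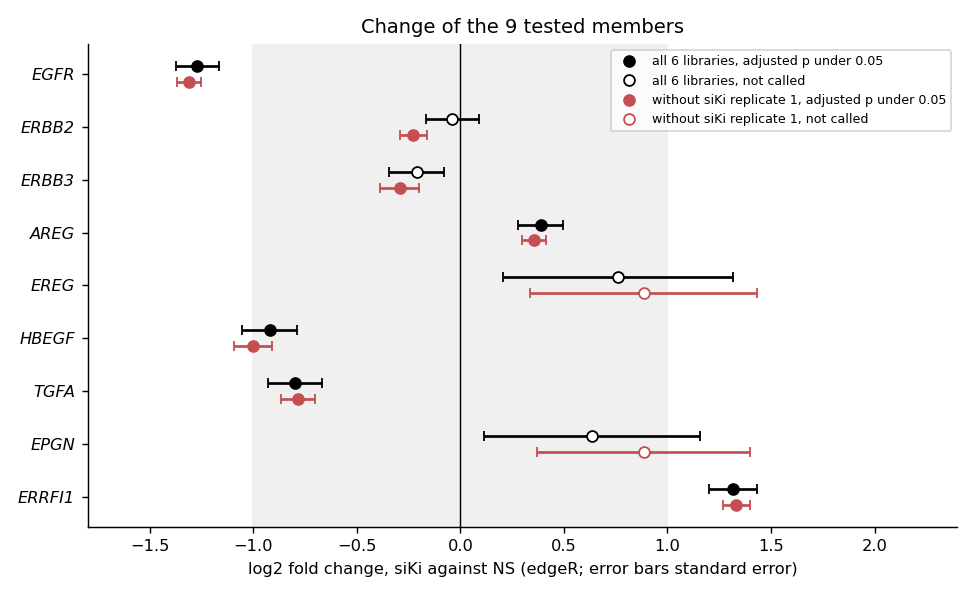
Log2 fold change of siKi against NS (x axis) for the 9 tested members, with standard errors, from all 6 libraries (black) and without siKi 1 (red). Filled points have an adjusted p under 0.05 by edgeR, and the grey band spans log2 fold changes within 1. EGFR and ERRFI1 lie outside the band in both fits, and ERBB2 and ERBB3 are filled only without siKi 1.

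When siKi 1 was left out, 2 of the 9 members were higher and 5 lower, ERBB2 and ERBB3 having joined EGFR, HBEGF and TGFA. In that comparison 28.9% of 15011 tested genes were called higher and 29.5% lower, so that calls were more common among all genes as well.

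The other receptor and ligands of the family were read from a list of 6 genes. ERBB4, the remaining receptor, had 0 counts in 5 libraries and 6 in siKi 2, and NRG4 had 0 counts in 5 libraries and 5 in siKi 1. A count of 0 allows up to 3 counts, or 0.0981 to 0.122 CPM depending on the library. NRG1, a neuregulin that binds ERBB3 and ERBB4, stood at 15.2 ± 1.86 CPM with NS and 15.7 ± 1.56 with siKi (log2 fold change 0.04, adjusted p = 0.87 by edgeR's quasi-likelihood test), and its direction turned with RLE scaling, DESeq2, without NS 2 and without siKi 3. NRG2, another neuregulin, fell from 2.22 ± 0.522 to 0.998 ± 0.253 CPM (SD, n = 3), a log2 fold change of -1.15 (adjusted p = 0.014 by edgeR's quasi-likelihood test), which was not called without NS 3 (0.077) or without siKi 2 (0.052). EGF and NRG3 had no row in the table.

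Of the 12 genes of ligand shedding, the proteases that release the ligands and their helpers, 1 rose (8.33%, beside 18.0% of all tested genes) and 7 fell (58.3%, beside 16.0%), with a median log2 fold change of -0.70 beside 0.08 for all tested genes. ADAM17, the main sheddase of AREG, TGFA and HBEGF, was the gene that rose, from 58.0 ± 2.2 to 78.9 ± 13.3 CPM (log2 fold change 0.44, adjusted p = 0.027 by edgeR's quasi-likelihood test). This call was lost without any of the NS libraries, without siKi 2 and without siKi 3, with adjusted p-values of 0.082 to 0.12. ADAM17 had 63.5, 87.7 and 85.4 CPM in siKi 1, 2 and 3. Without siKi 1 its log2 fold change was 0.52 (adjusted p = 6.8e-09 by edgeR). ADAM8, a protease of leukocytes and of many carcinomas, fell from 37.7 ± 3.14 to 4.87 ± 1.12 CPM (-2.95, adjusted p = 1.7e-06 by edgeR), and ADAM12, which can cleave HBEGF, from 8.96 ± 1.06 to 3.73 ± 0.563 CPM (-1.26, adjusted p = 0.00058). ADAM8 fell by 2.79 or more on the log2 scale under every alternative. Without siKi 1, 2 genes of this list were higher and 8 lower, beside 28.9% and 29.5% of all tested genes.

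The list of receptor turnover and restraint holds genes for ubiquitination, endocytosis and dephosphorylation of the receptors. Of its 27 tested genes 4 rose (14.8%, beside 18.0% of all tested genes), 6 fell (22.2%, beside 16.0%) and 17 were not called, shares near those of all genes, and the median was -0.03. CBLB, a ubiquitin ligase that marks EGFR for breakdown, rose from 7.56 ± 0.928 to 15.5 ± 1.49 CPM (log2 fold change 1.03), and PTPRJ, a receptor phosphatase that acts on EGFR, from 13.9 ± 1.21 to 24.8 ± 2.62 CPM (0.84). EPS15, an adaptor of the endocytosis of EGFR, fell from 26.1 ± 1.21 to 9.8 ± 2.46 CPM (-1.41), and PTPN1, a phosphatase that dephosphorylates EGFR, from 238 ± 9.49 to 150 ± 2.15 CPM (-0.67). These 4 genes were picked for the largest called changes of the list. Their groups did not overlap, which held for 47.6% of all tested genes, and their calls held under all 14 alternatives. Without siKi 1, 8 genes of the list were higher and 11 lower, beside 28.9% and 29.5% of all tested genes.

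Of the 35 tested signalling adaptors and kinases 2 rose (5.71%, beside 18.0% of all tested genes) and 5 fell (14.3%, beside 16.0%), and the median was -0.11. The 28 others, including most of the RAS, RAF, MEK and ERK genes of the list, were not called. NCK1, an adaptor to the actin skeleton, had 9.32 ± 1.06 CPM with NS and 15.5 ± 5.36 with siKi (log2 fold change 0.73, adjusted p = 0.036 by edgeR's quasi-likelihood test), with overlapping groups, and its relative NCK2 59.7 ± 1.89 and 74.0 ± 2.1 CPM (0.31, adjusted p = 0.041). Over the alternatives the adjusted p reached 0.14 for NCK1 and 0.18 for NCK2. NCK1 had 9.41, 19.5 and 17.7 CPM in siKi 1, 2 and 3. Without siKi 1 the log2 fold change was 0.93 for NCK1 (adjusted p = 1.8e-08 by edgeR) and 0.24 for NCK2 (0.0015). GAB2, a docking protein for PI3K, fell from 4.54 ± 1.33 to 2.34 ± 0.296 CPM (-0.95), a call lost without NS 1 (adjusted p = 0.079 by edgeR), and NF1, which inactivates RAS, from 14.4 ± 1.44 to 8.82 ± 0.237 CPM (-0.71). Without siKi 1 the called genes of the list numbered 23, of which 7 were higher and 16 lower, beside 28.9% and 29.5% of all tested genes.

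ERK feedback and output genes, whose transcription follows the activity of the pathway in many cells, mostly fell. Of 25 tested genes 18 fell (72%, beside 16.0% of all tested genes), 1 rose (4.0%, beside 18.0%) and 6 were not called, with a median log2 fold change of -1.09. Of those that fell 13 were DEGs, a class that held 4.84% of all tested genes. SPRY4, a feedback inhibitor of receptor tyrosine kinase signalling, fell from 53.2 ± 6.04 to 13.1 ± 0.688 CPM (-2.02, adjusted p = 2.6e-06 by edgeR's quasi-likelihood test), and DUSP7, a phosphatase of ERK, from 85.4 ± 1.94 to 24.7 ± 2.18 CPM (-1.79, adjusted p = 2.5e-06). JUNB, a subunit of AP-1, was the gene that rose, from 138 ± 3.08 to 195 ± 30.4 CPM (0.50, adjusted p = 0.011 by edgeR), and without one or another NS library its adjusted p was 0.051 to 0.065. Its level was 229, 172 and 183 CPM in siKi 1, 2 and 3. Without siKi 1 its log2 fold change was 0.30 and was still called. ERRFI1, which is itself known as an ERK-induced feedback inhibitor, rose, unlike most of this list. Without siKi 1, 1 gene of the list was higher and 20 were lower, beside 28.9% and 29.5% of all tested genes. The lists were written with earlier results of these data known, and their counts describe these libraries only.

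**Figure D4:**
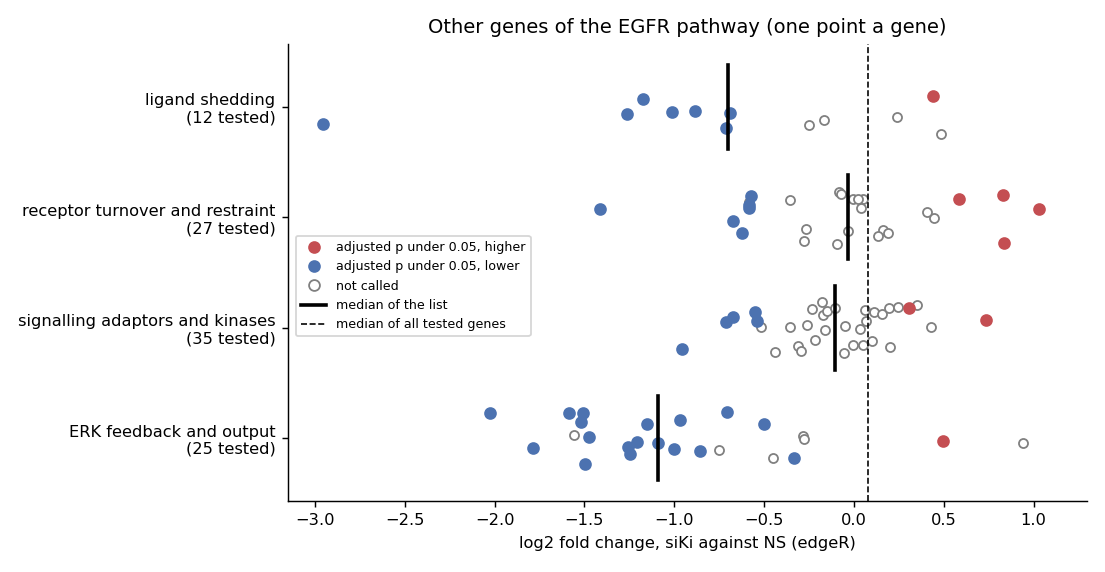
Log2 fold change of siKi against NS (x axis) for the tested genes of the 4 pathway lists, with 1 point per gene, filled where the adjusted p was under 0.05 by edgeR (red higher, blue lower), a bar at the median of each list and a dashed line at the median of all tested genes. The ERK feedback and output genes centre on -1.09 and the shedding genes on -0.70, while the remaining lists lie around 0.

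Over the 6 libraries, the genes closest to EGFR in pattern, by the root mean square difference of log2 CPM after centring each gene on its NS mean, were MBOAT1 (0.0538), QSER1 (0.0548) and HIP1 (0.0637), where the median tested gene differed by 0.977. HIP1 went from 27.3 CPM with NS to 11.2 CPM with siKi. The genes closest to AREG were CTD-2523D13.2 (0.0419), CHRAC1 (0.0462) and ALG2 (0.0488), beside a median of 0.435. CHRAC1 went from 48.4 CPM to 61.6 CPM. These distances rest on 6 libraries that fall into 2 groups.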

How the data were processed

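SCC-9 cells with NS or siKi siRNA were profiled by stranded poly(A) RNA sequencing in 3 libraries each. The counts of reads on each of 25349 genes were deposited by the authors as whole numbers without normalization. The submitters' processing notes name HISAT2, GRCh38 and DESeq2. The counting tool, its strand setting and the annotation release are not given in the sources used here. Genes were filtered by filterByExpr (14661 kept), scaled by TMM and tested by edgeR 4.0.16 (R 4.3.3), quasi-likelihood with robust dispersions and Benjamini-Hochberg adjustment over all tested genes. The code was tested on simulated data. Positions and lengths come from GENCODE v44 on GRCh38, which matched 25283 identifiers. For log2 CPM, 0.02 CPM was added. The alternatives were DESeq2 1.42.0, limma-voom (limma 3.58.1), upper-quartile, RLE or absent composition scaling, no filter, at least 10 counts in every library, a replicate block, and each library left out. Samples were grouped by title. Counting error alone underlies the limit for a count of 0.

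The members and lists were chosen with earlier results of these data known. The text names by rule all members, MKI67, the further ErbB genes, in each of 4 lists the 2 called genes with the largest change in each direction, and the 3 genes closest to EGFR and to the most abundant ligand. Within-library shares and ratios were added once the values were known. No protein sequences were used here.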

Additional observations from a re-analysis of the deposited data

How the results depend on the processing

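The calls of EGFR, HBEGF, TGFA, ERRFI1 and MKI67 held under all 14 alternatives, and each kept its direction. No composition scaling raised the median log2 fold change of all tested genes by 0.169. It turned ERBB2 to 0.12, raised the genes called higher from 2639 to 4030, and gave log2 differences of 0.31 for the summed ligands (0.14 with TMM) and -0.58 for the summed receptors (-0.74 with TMM). With the longest coding transcript as length the receptor sum changed by -0.66. NRG1 turned to -0.011 with RLE scaling and to -0.020 with DESeq2. With single libraries left out, the log2 fold change ranged from -0.23 to 0.07 for ERBB2, -0.30 to -0.15 for ERBB3, 0.32 to 0.43 for AREG, -0.0024 to 1.10 for EREG and -0.05 to 0.13 for NRG1. NRG1 was -0.048 without NS 2 and -0.046 without siKi 3, and without siKi 3 EREG was -0.0024 and ERBB2 0.066. In the same fits 1 to 2 members were called higher and 3 to 5 lower, 1 to 2 were downward DEGs, and 1598 to 4343 of all genes were called higher and 1552 to 4422 lower, the highest counts without siKi 1. The called genes ranged from 0 to 1 for the further ErbB genes, 9 to 19 for receptor turnover and 3 to 23 for signalling adaptors and kinases. Except where a value or the setting itself shows it, the cause was not tested.

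The replicate numbers showed no sign of pairing the libraries. Same-numbered libraries had correlations of -0.0393, -0.0205 and -0.0521 between their deviations from the group means, and the other pairs -0.0372 to 0.0609. With 3 libraries per group these values cannot settle whether the libraries were paired. With the replicate block, 2590 genes were called higher and 2357 lower (2639 and 2351 without it), AREG had an adjusted p of 0.029 by edgeR, and among the named genes the call was lost for NCK2 and CHRAC1 and no other call changed. A BTC fold change could be had only without the filter. The 3 libraries per group limit all of these comparisons, and EREG, EPGN and BTC rest on few counts as well.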
